A study of Mus musculus with 2 samples.

Results

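Melanocyte lineage genes were read on 2 Affymetrix arrays of cells sorted from hair follicles of mouse back skin at postnatal day 4. The 10 genes were Kit, Ednrb, Dct, Tyr, Tyrp1, Pmel, Mlana, Mitf, Sox10 and Slc45a2. They were taken as every probe set whose platform annotation gives one of these symbols and no other, which found 21 probe sets for the 10 genes among 34945 probe sets of 18193 genes. Both samples came from CD-1 pups of genotype K14-RFP/Sox9-EGFP, which carry a red reporter under the keratin 14 promoter and a green reporter for Sox9. Early bulge cells, of the stem cell compartment of the follicle, had been gated as high in both colours. Non-bulge cells of the outer root sheath (ORS), the outermost epithelial layer, had been gated as high in red and without green. Each population was measured on 1 array, and the labels used here do not say how many pups gave the cells. No ratio below can be set against a replicate, and the values carry no p-value.

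Melanocytes are the pigment cells of skin and hair. They derive from the neural crest, and in the hair follicle they reside in the bulge region as stem cells and in the hair bulb as pigment-making cells that pass granules, the melanosomes, to keratinocytes of the growing shaft. Sox10 and Mitf are transcription factors that set the lineage, the receptors Kit and Ednrb carry survival and migration signals to it, and Tyr, Tyrp1 and Dct are the related enzymes that make melanin. CD-1 is an albino strain, in which tyrosinase is inactive but melanocytes are present. Keratin 14 is a keratinocyte protein, so both gates were set for keratinocytes and neither for melanocytes. In RNA of sorted populations, fewer cells of a type and less RNA per cell cannot be told apart.

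The start-site regions of the 3 melanin enzymes are shown because these genes share a known element, the M-box, through which Mitf activates them. The sequences are the 250 bases before the start site in RefSeq (GRCm38.p6), printed 5′ to 3′ on the gene's own strand, with the core TCATGTG on either strand in capitals. They lie at chr7:87493513-87493762 on the minus strand for Tyr, chr4:80833963-80834212 on the plus strand for Tyrp1 and chr14:118052247-118052496 on the minus strand for Dct.
Tyr: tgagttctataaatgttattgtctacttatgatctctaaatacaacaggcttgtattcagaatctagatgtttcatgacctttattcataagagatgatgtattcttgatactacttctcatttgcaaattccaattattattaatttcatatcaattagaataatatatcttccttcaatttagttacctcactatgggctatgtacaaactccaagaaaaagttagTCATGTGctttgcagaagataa
Tyrp1: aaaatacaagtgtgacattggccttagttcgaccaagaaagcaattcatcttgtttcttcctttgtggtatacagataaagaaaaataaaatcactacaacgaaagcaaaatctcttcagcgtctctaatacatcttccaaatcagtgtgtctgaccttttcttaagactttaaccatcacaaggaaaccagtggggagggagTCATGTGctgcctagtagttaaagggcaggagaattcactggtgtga
Dct: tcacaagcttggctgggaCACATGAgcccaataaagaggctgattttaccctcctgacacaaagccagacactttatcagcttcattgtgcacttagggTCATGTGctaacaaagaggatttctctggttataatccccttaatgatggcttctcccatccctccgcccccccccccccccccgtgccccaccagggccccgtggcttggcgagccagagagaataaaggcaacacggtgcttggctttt

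In Tyr the core began 22 bases before the start site and in Tyrp1 47 bases before it. Dct held it at 151 bases before the start site, and once more in reverse, as CACATGA, at 232. The annotated Tyrp1 gene begins 90 bases before the start site used for its window, so that element lies within the annotated gene. In all 3 genes a forward copy was followed by the letters CT. The 7-base core was found on either strand in 3.25% of 32851 windows of this length, and the 9-base form TCATGTGCT in 0.335% of them. Among the 10 genes, 6 had windows in the RefSeq table, and Kit, Ednrb and Mitf had no core in theirs. Pmel, Mlana, Sox10 and Slc45a2 had no window in it. A match of letters is a description of the sequence and not a measurement of binding.

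The values are linear MAS5 signal intensities, and 57.8, the 40th percentile of all signals, served as a floor below which signals were not ordered. A gene was represented by its brightest probe set, and each ratio is that of early bulge to ORS. A ratio with 1 array below the floor is a lower bound, computed against the floor. All 10 genes lay above the floor on both arrays by their brightest probe set. Of all probe sets other than controls, 62.0% reached the floor in early bulge and 58.0% in ORS, so passing it was common. Of their 21 probe sets, 13 lay above it on both arrays, 5 on 1 array and 3 on neither. Most were dim. In 16 of the 21 the brighter array was still under 256. The TrpnX negative controls reached at most 28.1.

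Kit and Ednrb, the receptors of the lineage, had lower signals in early bulge, and Slc45a2, a transporter of the melanosome, had a higher one. The other 7 genes were less than 2-fold apart. By their brightest probe sets, 2 of 10 genes were at least 2-fold lower in early bulge, against 4.78% of all 13252 measured genes. In the other direction 1 of 10 was at least 2-fold higher, against 7.30% of all measured genes. Of the 18 probe sets that reached the floor, 2 were at least 2-fold lower in early bulge and 2 at least 2-fold higher, against 4.44% and 6.75% of all 24133 measured probe sets. With median centring of the arrays the share of the 2-fold differences over all genes that pointed to early bulge was 40.9% in place of 60.4%. The median log2 ratio of the 10 genes was 0.19, against 0.04 over all measured genes. It was -0.02 with median centring, which moved the median of all genes to -0.17. At any size, 6 of the 10 genes were higher in early bulge and 4 were lower. Over all measured genes 53.0% were higher and 47.0% lower. Among the 4667 genes with a mean signal under 256 the share higher in early bulge was 64.5%, so a small ratio in that direction was common among dim genes, and 9.62% of these dim genes were at least 2-fold higher there.

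**Figure D1:**
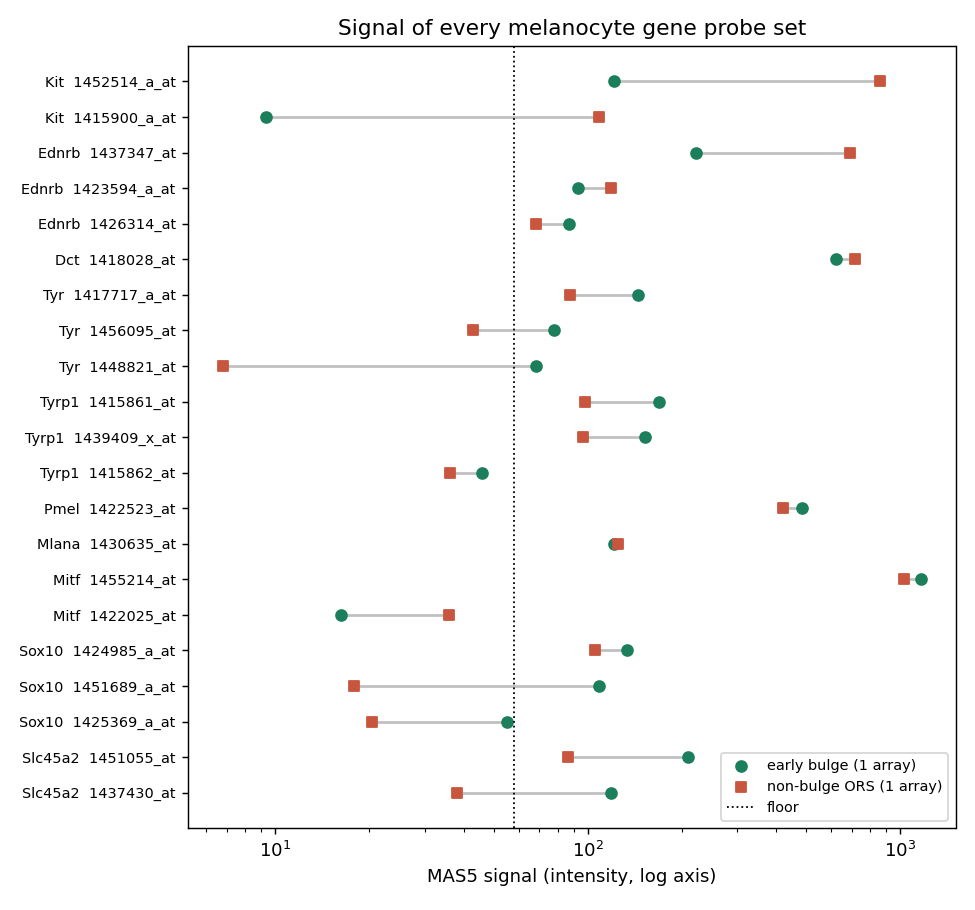
MAS5 signal (log axis) of each of the 21 probe sets of the 10 melanocyte lineage genes, with circles for the early bulge array, squares for the non-bulge ORS array and a dotted line at the floor of 57.8. The brighter Kit probe set sits at 121.4 in early bulge and 860.0 in ORS, while Dct, Pmel, Mlana and the brighter Mitf probe set have both arrays close together.

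Kit is the receptor tyrosine kinase for stem cell factor, and melanoblasts, mast cells and other cells use it. Its brighter probe set (1452514_a_at) had a signal of 121.4 in early bulge and 860.0 in ORS, a 7.08-fold lower value in early bulge (log2 ratio -2.82). The second probe set (1415900_a_at) read 9.35 in early bulge, below the floor, and 108.7 in ORS, which makes it at least 1.88-fold lower. Both Kit probe sets were thus higher on the ORS array, but only the first passed 2-fold, and the size of the difference rests on that single probe set. Both carry the suffix that marks probe sets shared by several transcripts of one gene, so Kit had no value when suffixed probe sets were left out.

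Ednrb is the receptor for endothelins, needed by the melanoblasts that colonise the skin, and is also made by endothelial and glial cells. Its brightest probe set (1437347_at) had 222.3 in early bulge and 687.7 in ORS, 3.09-fold lower in early bulge (log2 ratio -1.63). A second one (1423594_a_at) had 92.8 in early bulge and 118.4 in ORS, a log2 ratio of -0.35. The third (1426314_at) ran the other way, with 86.7 in early bulge and 68.1 in ORS and a log2 ratio of 0.35. The 3 probe sets of Ednrb therefore disagreed in size and in sign, and their mean log2 ratio was -0.54, less than 2-fold. Over all genes, log2 ratios of 2 probe sets of one gene differed with an SD of 0.50 (15292 pairs above the floor on both arrays) and of 0.62 among dim genes (2655 pairs). The range from the lowest to the highest log2 ratio of the 3 Ednrb probe sets was 1.98.

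The ligands of these receptors had similar signals on both arrays by their brightest probe sets. Kitl, the stem cell factor made by keratinocytes, had 2916 in early bulge and 2619 in ORS (log2 ratio 0.15), and its 4 probe sets gave log2 ratios from 0.14 to 0.66. Edn3, the endothelin of melanoblast development, had 210.7 in early bulge and 178.8 in ORS (log2 ratio 0.24), while 2 of its 4 probe sets were below the floor on both arrays. The remaining endothelins Edn1 and Edn2 had log2 ratios of -0.07 and -0.01. None of these 4 ligands was 2-fold apart.

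The lineage factors Mitf and Sox10 were less than 2-fold apart by their brightest probe sets. Mitf, which several cell types make from alternative start sites, had 1161 in early bulge and 1024 in ORS by its brighter probe set (1455214_at, log2 ratio 0.18), and -0.04 with median centring. Its other probe set (1422025_at) was below the floor on both arrays, with 16.2 in early bulge and 35.8 in ORS. Sox10, shared by melanocytes and Schwann cells, had 133.4 in early bulge and 105.7 in ORS (1424985_a_at, log2 ratio 0.34). A dimmer Sox10 probe set (1451689_a_at) had 108.8 in early bulge and 17.8 in ORS and was at least 1.88-fold higher in early bulge. The third (1425369_a_at) had 55.3 in early bulge and 20.3 in ORS, below the floor on both. Both measured Sox10 probe sets were higher in early bulge, neither by 2-fold above the floor, and the size of the dimmer one is known only as a bound.

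Among the enzymes and proteins of the melanosome, 8 of 10 measured probe sets had the higher signal in early bulge, against 53.5% of all measured probe sets. These 10 probe sets belong to only 6 genes, of which 4 were higher, and most of the 10 were dim. Over all dim genes the share higher in early bulge was 64.5%. Slc45a2, a melanosome membrane transporter, stood furthest apart. It had 208.6 in early bulge and 86.5 in ORS by its brighter probe set (1451055_at), 2.41-fold higher in early bulge. The other one (1437430_at) had 119.0 in early bulge and 38.2 in ORS and was at least 2.06-fold higher. Slc45a2 was the only one of the 10 genes with every probe set at least 2-fold apart, by value or bound, and its signals were dim on both arrays. With the floor at the 60th percentile its log2 ratio was 0.28.

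Tyr encodes tyrosinase, the rate-limiting enzyme of melanin synthesis. It had 144.2 in early bulge and 87.6 in ORS (1417717_a_at), 1.65-fold higher in early bulge. Its second probe set (1456095_at) had 78.1 in early bulge and 42.9 in ORS, at least 1.35-fold higher. The third (1448821_at) had 68.4 in early bulge and 6.81 in ORS, at least 1.18-fold higher. The 3 Tyr probe sets pointed the same way, with no 2-fold difference above the floor. Tyrp1, a related enzyme that stabilises tyrosinase, had 168.9 in early bulge and 98.0 in ORS (1415861_at), 1.72-fold higher. A further Tyrp1 probe set (1439409_x_at) had 152.3 in early bulge and 96.4 in ORS, 1.58-fold higher, and the last (1415862_at) had 45.9 in early bulge and 36.3 in ORS, below the floor on both. The 2 measured Tyrp1 probe sets thus had ratios of like size.

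Dct, the dopachrome tautomerase already made by melanoblasts and melanocyte stem cells, behaved otherwise than Tyr and Tyrp1 in sign. It had 622.3 in early bulge and 716.8 in ORS (1418028_at), a log2 ratio of -0.20. Pmel, which forms the fibrils on which melanin is laid down, had 485.9 in early bulge and 420.7 in ORS (1422523_at, log2 ratio 0.21), and -0.01 with median centring. Mlana, a small melanosome protein, had 121.3 in early bulge and 125.0 in ORS (1430635_at, log2 ratio -0.04). Each of these 3 genes had 1 probe set and nearly equal signals on the arrays. Tyr, Tyrp1 and Dct, which share the promoter element, were all less than 2-fold apart, and a role of the element was not tested. The 6 melanosome genes had a median log2 ratio of 0.46, with 4 higher and 2 lower in early bulge.

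**Figure D2:**
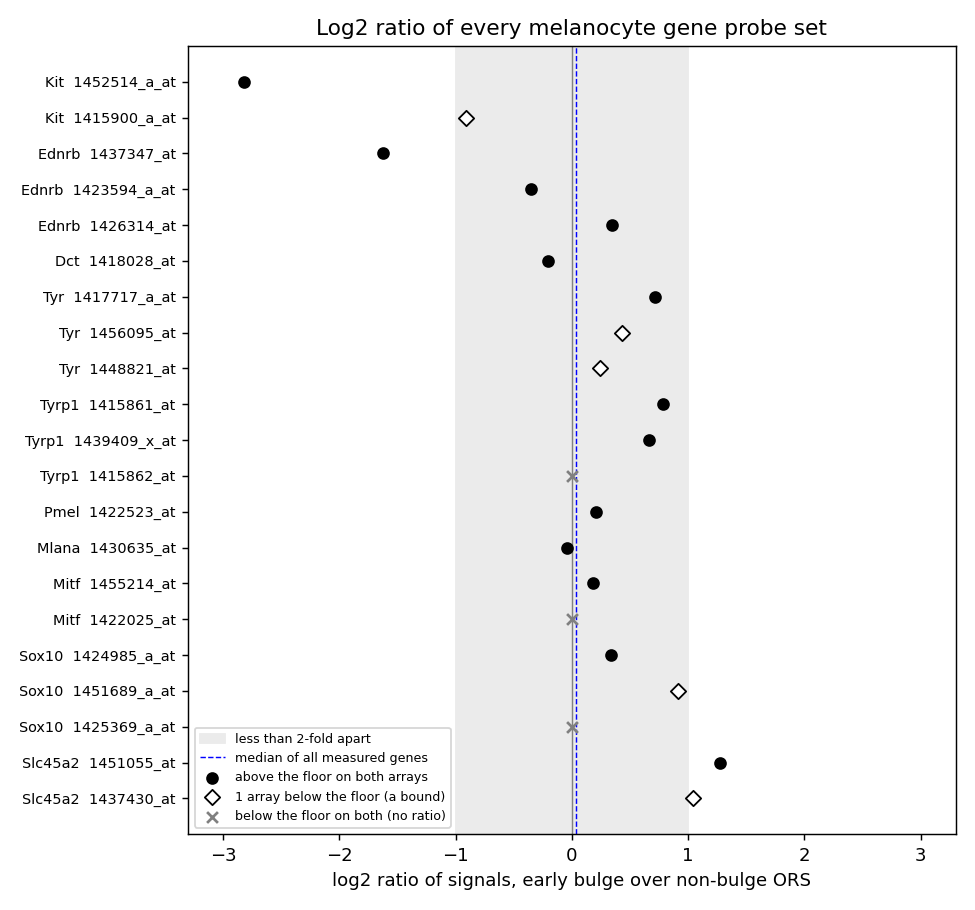
Log2 ratio of early bulge over non-bulge ORS signal for each of the 21 probe sets, with filled circles for those above the floor on both arrays, open diamonds for bounds, crosses for probe sets below the floor on both, a dashed line at the median of all measured genes (0.04) and shading for less than 2-fold. Kit and Ednrb extend to -2.82 and -1.63, and both Slc45a2 probe sets lie beyond 1.

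Over the 8 genes other than Kit and Ednrb, which were set aside after their values were seen, log2 ratios ran from -0.20 to 1.27 with a median of 0.27. The genes nearest to Kit in the plane of the 2 log2 signals were Prss35, Igfbp3 and Grb10, at distances of 0.09, 0.13 and 0.15. Those nearest to Tyrp1 were Faim2, Ephx3 and Ankrd37, at 0.02, 0.03 and 0.03. With only 2 arrays this distance says no more than that their signals were alike on both.

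**Figure D3:**
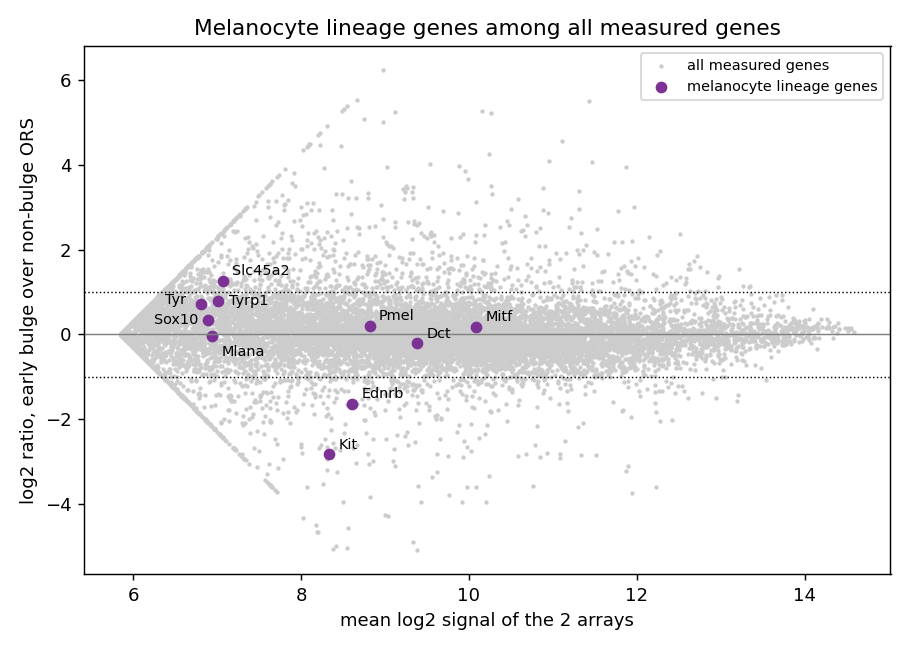
Log2 ratio of early bulge over non-bulge ORS against the mean log2 signal of the 2 arrays, with grey points for all 13252 measured genes, purple points for the 10 melanocyte lineage genes and dotted lines at 2-fold. Kit and Ednrb lie below the lower line at middle signals, and Slc45a2, Tyr, Tyrp1, Sox10 and Mlana lie at the dim end. By their brightest probe sets all 10 genes are above the floor on both arrays, so none of their ratios here is a bound.

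Other genes of the pathway mostly differed little. Of 14 measured regulators and receptors of melanocytes besides the 10, none was at least 2-fold higher in early bulge and 3 were at least 2-fold lower, with a median log2 ratio of 0.21. The 3 were Lef1, a Wnt effector of the hair matrix and melanoblasts (249.9 in early bulge and 1525 in ORS, 6.11-fold lower), Sox5, a Sox factor that modulates Sox10 (47.2 in early bulge and 296 in ORS, at least 5.12-fold lower), and Zeb2, a zinc finger factor of neural crest and mesenchyme (47.0 in early bulge and 247 in ORS, at least 4.28-fold lower). The weakest probe sets gave log2 ratios of -0.83 for Lef1, -0.51 for Sox5 and -0.26 for Zeb2, and the strongest of Sox5 gave -3.47. With the floor at the 60th percentile the count of 3 was 1, since Sox5 and Zeb2 are bounds set by the floor. Pax3, which activates Mitf, read 73.6 in early bulge and 65.5 in ORS (log2 ratio 0.17). Mc1r, the melanocortin receptor, read 100.7 in early bulge and 76.0 in ORS (log2 ratio 0.41). These 2 genes, which are more restricted to melanocytes than Lef1, were dim and less than 2-fold apart.

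Of 7 other measured pigment granule genes, 2 were at least 2-fold higher in early bulge and none was lower by that much (median 0.10). Trpm1, a melanocyte channel, had 135.7 in early bulge and 66.3 in ORS and was 2.05-fold higher. A further probe set was at least 2.07-fold higher, and only these 2 of its 4 probe sets were measured. Its log2 ratio was 0.82 with median centring and 0.81 with quantile or loess scaling, so the count of 2 was then 1. Rab38, a small GTPase of melanosome cargo that epithelia also make, had 4016 in early bulge and 1700 in ORS and was 2.36-fold higher. Gpr143 and Mcoln3 were below the floor on both arrays. Of 18 genes of granule assembly and transport, most of them used by all cells, 1 was 2-fold apart (median 0.08). It was Rab27a, which tethers melanosomes to their motor, at least 2.71-fold lower in early bulge, although its other measured probe set gave a log2 ratio of 0.36, and the count was 0 with a floor at percentile 60 or the mean over probe sets.

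Of 15 measured genes that signal to melanocytes or shape their niche, 3 were at least 2-fold higher in early bulge and 2 were at least 2-fold lower (median 0.13). The growth factors Tgfb3 (8.74-fold) and Tgfb2 (5.79-fold), of a pathway that holds melanocyte stem cells quiescent, were higher in early bulge, as was the hemidesmosome collagen Col17a1 (5.20-fold), which those stem cells need in their niche. Foxn1, a keratinocyte factor that directs pigment transfer, was 3.32-fold lower in early bulge, although its other probe set gave a log2 ratio of -0.45. Corin, a dermal papilla protease that modifies coat colour, was at least 2.92-fold lower. The count of 2 lower was 1 with the floor at the 60th percentile.

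Dermal fibroblast markers and hair matrix regulators were mostly lower in early bulge, as Kit and Ednrb were. Of 13 dermal fibroblast markers, 12 were at least 2-fold lower in early bulge (median log2 ratio -3.67), and their summed signal was 6389 in early bulge and 61306 in ORS. The largest were Lox (31.9-fold), Lum (29.9-fold), Dpt (22.5-fold) and Ogn (at least 20.1-fold). Of 10 hair matrix regulators, 8 were at least 2-fold lower in early bulge (median -2.31), with a summed signal of 2708 in early bulge and 15241 in ORS. Dlx3, Msx2, Dlx2 and Cux1 led them, with log2 ratios of -3.53, -3.36, -3.25 and -2.81. Lef1 and Foxn1 stand in this list too. The part of these cells in the Kit and Ednrb differences was not tested.

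The mast cell markers, for cells that also carry Kit, were below the floor on both arrays for all 9 genes with a probe set, Cpa3 with 54.9 in early bulge and 14.6 in ORS among them. Cma1, with 57.4 in early bulge and 56.2 in ORS, and Tpsab1, with 55.9 in early bulge and 55.8 in ORS, lay just under the floor. With median centring, quantile or loess scaling both were measured, at log2 ratios of -0.07 and -0.06 with median centring. With the floor at the 20th percentile 1 mast cell marker, Cpa3, was at least 2-fold higher in early bulge (log2 ratio 1.56). Of 10 endothelial markers 5 were measured (median -0.41), with a summed signal of 466 in early bulge and 785 in ORS. Pecam1 and Cdh5, which define endothelium, were below the floor on both arrays, while the receptor Tek was 4.09-fold lower in early bulge (70.0 in early bulge and 286 in ORS), and less than 2-fold lower with the floor at the 60th percentile. Of 8 immune markers 3 were measured and none was 2-fold apart (median -0.17), with a summed signal of 327 in early bulge and 329 in ORS and Ptprc below the floor on both. With median centring, quantile or loess scaling 1 immune marker, Lyz2, passed 2-fold in the lower direction, and the list's median was 0.42 with the floor at the 20th percentile. Of 6 measured Schwann cell markers 2 were at least 2-fold higher in early bulge and none lower by that much (median 0.01). They were S100b (2.59-fold), which melanocytes also make, and Mbp (2.43-fold, whose weakest probe set gave a log2 ratio of 0.05). With a floor at percentile 60 none was 2-fold higher, and Gfra3 (log2 ratio -0.95) passed 2-fold in the lower direction with median centring and quantile normalization. The summed signal of this list was 14047 in early bulge and 13391 in ORS, most of it from Egr2, which keratinocytes also make.

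Basal keratinocyte genes were measured on both arrays. By their brightest probe sets all 11 were higher in early bulge, 6 by at least 2-fold (median 1.02), with a summed signal of 111685 in early bulge and 57554 in ORS. Sox9, whose reporter set the gate, was 6.01-fold higher in early bulge, its weakest probe set giving a log2 ratio of 0.30, and Krt14 was 2.23-fold higher. Lamb3 was 3.96-fold higher. With median centring 3 of the 11 were at least 2-fold higher and Cdh3 was lower (log2 ratio -0.18, against 0.04 as deposited). By their brightest probe sets the defining melanocyte genes Dct, Pmel, Mlana, Tyr and Tyrp1 were above the floor on both arrays as well. That floor is low, since 62.0% of all probe sets reached it in early bulge and 58.0% in ORS. Tyr, at 87.6 in ORS, lay close to the median signal of that array, 88.0, and its other probe sets were below the floor there.

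**Figure D4:**
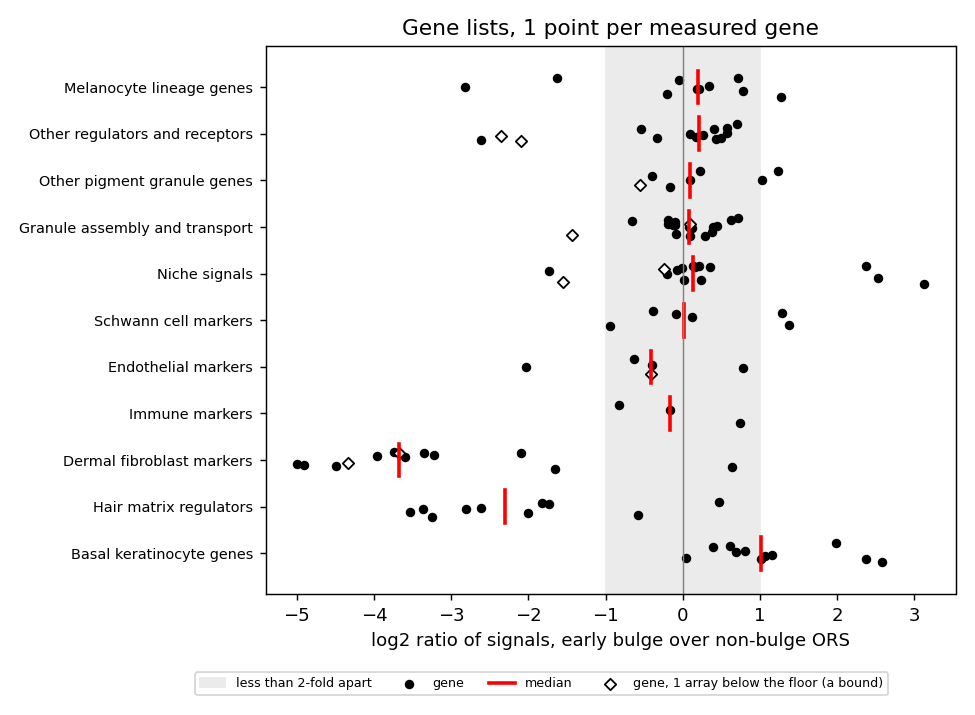
Log2 ratio of early bulge over non-bulge ORS for each measured gene of the melanocyte lineage genes and of 10 other lists, with filled points for genes above the floor on both arrays, open diamonds for bounds, red bars for list medians and shading for less than 2-fold. Fibroblast and hair matrix genes lie mostly below -1 (medians -3.67 and -2.31), where Kit (-2.82) and Ednrb (-1.63) also lie. Basal keratinocyte genes lie above 0 (Cdh3 below 0 with median centring, quantile or loess scaling).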

How the data were processed

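RNA of 2 sorted populations was measured on 1 array each. The authors deposited 1 linear signal intensity per probe set and array. The submitters' processing notes name MAS5 and Affymetrix Expression Console, without versions. The 2% trimmed mean was 500.0 on both arrays, so each had been scaled to one target. Low MAS5 values are noisy although never negative. Gene symbols came from the platform annotation, and probe sets with several symbols or none and 64 control probe sets were left out.

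Log2 ratios were computed in Python 3.11.15. For each gene the probe set highest in mean log2 signal was taken, and the gene was measured if it reached the floor on at least 1 array, which left 13252 genes, 1718 of them with a bound. Medians keep bounds at their bound. Having 1 array per group limits the precision, and no test between the populations was possible. The procedure was tested on simulated arrays.

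The genes and the 11 other lists were chosen with earlier results of these data known. All 10 genes were named with every probe set. Of the other lists, up to 4 genes at least 2-fold apart were named by size, beside a set of defining genes, the 3 genes nearest to Kit and the 3 nearest to Tyrp1. Outside this rule, Edn1, Edn2, Corin, Egr2, Gpr143, Mcoln3, Cma1, Tpsab1, Lyz2, Gfra3, Cdh3 and Ptprc were chosen after their values were seen. Alternatives were median centring, quantile and loess scaling (span 0.4), no floor, a floor at percentile 20 or 60, a pseudocount of 50, the mean over probe sets, and leaving out suffixed probe sets.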

Additional observations from a re-analysis of the deposited data

How the results depend on the processing

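Under the 9 alternatives, where a gene had a value, Kit and Ednrb stayed lower in early bulge. Kit ran from -3.04 to -1.87 in log2 ratio under 8 of them and Ednrb from -1.85 to -0.54 under all 9. Slc45a2 stayed higher, from 0.28 to 1.27. The count of genes at least 2-fold higher in early bulge, 1 in the report, was 0 with a floor at percentile 60 and 0 with a pseudocount. The count at least 2-fold lower, 2 in the report, was 1 with the mean over probe sets, where Ednrb fell short of 2-fold, and 1 without suffixed probe sets, where Kit had no value. Tyr, Tyrp1 and Sox10 were higher in early bulge under every alternative that gave them a value, and Dct and Mlana lower, all less than 2-fold. Pmel and Mitf changed sign with median centring. Over the other 11 lists together, 12 genes were at least 2-fold higher in early bulge, 8 with median centring and 19 with no floor, a setting that orders signals below 57.8. The lower count, 25 in the report, ran from 20 with the floor of percentile 60 to 33 with no floor. Signal over background limits the sizes, since 16 of the 21 probe sets stayed under 256 on both arrays. No leave-one-out and no paired analysis was possible because each group has 1 array.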
